A study of Rattus norvegicus with 9 samples.

Results

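The 7 genes described here belong to the cellular response to low oxygen. They were chosen by symbol as Hif1a, Epas1, Arnt, Egln1, Egln3, Vegfa and Bnip3, and all 7 were found, each on 1 of the 30452 lines of the gene count files. The 9 libraries of RNA sequencing came from arteries of rat offspring aged 3 to 5 months, in 3 groups of 3. Pulmonary artery came from offspring whose dams drank ordinary water in pregnancy (replicates 1, 2 and 4). Mesenteric artery, which supplies the gut, came from offspring of dams given water with 20% sucrose (high sucrose, replicates 1, 2 and 3) and from offspring of dams given ordinary water (control, replicates 1, 2 and 3). All dams ate standard diet. The sample labels give the treatment only as C or H, read here as the ordinary-water and the sucrose group that the study's design describes. Within a group, values are listed by replicate number. The pulmonary and the high-sucrose libraries are both compared with the same 3 control mesenteric libraries. The labels do not say what strain or sex the offspring were, nor how many animals a library holds, so p-values measure the spread between these samples, which may be technical.

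Hypoxia-inducible factor (HIF) is a pair of proteins, an oxygen-regulated alpha subunit (Hif1a, or Epas1 which is also called HIF-2 alpha) and the stable partner Arnt. In the presence of oxygen the prolyl hydroxylases, among them Egln1 and Egln3, mark the alpha subunit for destruction, and when oxygen is short HIF switches on genes such as Vegfa, the growth factor of blood vessels, Bnip3, a mitophagy receptor on mitochondria, and Egln3 itself. The oxygen control of the alpha subunits acts on the protein, which RNA counts do not measure. Pulmonary arteries are known to constrict in low oxygen, whereas systemic arteries such as the mesenteric ones dilate.

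HIF binds DNA at short elements with the core ACGTG or GCGTG. These 2 motifs were searched on both strands of the 250 bases before each gene start in the promoter table of RefSeq (build GRCr8), which held all 7 genes, Vegfa with 2 starts. Bnip3 had 4 matches: 2 were ACGTG on opposite strands and overlapped in a palindrome, and 2 were GCGTG. Hif1a had 3 matches of ACGTG, 2 of which overlapped in the same way, and Arnt and Egln1 had 1 match of GCGTG each. Epas1, Egln3 and both starts of Vegfa had 0 matches, which says only that these letters do not stand in those windows. Over all 33469 promoter entries 16.6% held ACGTG, 25.9% held GCGTG and 36.7% held either. A match is a description of the letters and not a measured binding site.

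The windows of Bnip3 (chr1:203154963-203155212, minus strand), Egln1 (chr19:69804682-69804931, minus strand), Egln3 (chr6:77411016-77411265, minus strand) and the first Vegfa start (chr9:22452604-22452853, plus strand) are shown because these are the hydroxylases and HIF targets whose levels are compared below. All coordinates are of build GRCr8, each sequence reads 5′ to 3′ on the strand of the gene, and capitals mark the matches on either strand.
Bnip3: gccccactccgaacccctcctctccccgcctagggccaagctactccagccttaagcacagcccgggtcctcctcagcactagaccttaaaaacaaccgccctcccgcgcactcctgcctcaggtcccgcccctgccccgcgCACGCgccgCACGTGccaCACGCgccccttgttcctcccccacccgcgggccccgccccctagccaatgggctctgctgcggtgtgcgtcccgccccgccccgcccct
Egln1: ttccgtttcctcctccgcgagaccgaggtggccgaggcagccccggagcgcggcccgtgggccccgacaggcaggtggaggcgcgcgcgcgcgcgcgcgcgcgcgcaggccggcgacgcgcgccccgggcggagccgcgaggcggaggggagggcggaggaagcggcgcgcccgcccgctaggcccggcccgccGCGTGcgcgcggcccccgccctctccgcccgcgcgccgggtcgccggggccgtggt
Egln3: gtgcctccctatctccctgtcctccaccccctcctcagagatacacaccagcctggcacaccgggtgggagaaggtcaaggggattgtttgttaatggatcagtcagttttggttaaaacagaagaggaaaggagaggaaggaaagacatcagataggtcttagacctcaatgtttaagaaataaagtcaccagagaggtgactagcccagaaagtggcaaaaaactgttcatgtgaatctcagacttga
Vegfa: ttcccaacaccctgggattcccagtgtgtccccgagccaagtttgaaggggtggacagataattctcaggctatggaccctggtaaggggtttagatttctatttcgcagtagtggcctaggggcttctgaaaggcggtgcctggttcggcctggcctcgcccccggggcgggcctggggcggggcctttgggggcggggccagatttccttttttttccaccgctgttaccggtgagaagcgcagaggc

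Total counts per library were between 10388231 and 15420546, and the 7 genes had from 75 to 6576 counts in a library. Counts of 13 mitochondrial genes made up 13.9, 20.1 and 27.1% of the total across pulmonary libraries. The share was 13.8, 16.9 and 20.0% across high-sucrose mesenteric libraries, and 12.8, 16.7 and 15.1% across control mesenteric libraries. Levels are CPM, counts scaled to a common total, on library sizes scaled by the trimmed mean of M-values (TMM). As transcript lengths were not used, levels are compared between samples and not between genes. Smooth muscle markers, the defining genes of the artery wall, were detected in every library (7 of 7 genes). Their summed level was 20688, 22065 and 3227 CPM across pulmonary libraries, 20297, 25241 and 16160 CPM across high-sucrose mesenteric libraries, and 38527, 9963 and 27523 CPM across control mesenteric libraries. Each of the 7 smooth muscle markers had its lowest level in pulmonary replicate 4, and each of 11 markers of lymphocytes and 10 of lung epithelium its highest there. Each of 10 cardiac markers peaked in pulmonary replicate 2. Immediate early genes, which respond to handling of tissue, summed to 1294, 645 and 1242 CPM across pulmonary libraries, 2493, 1656 and 10254 CPM across high-sucrose mesenteric libraries, and 2628, 2766 and 10782 CPM across control mesenteric libraries. In these bulk samples, fewer cells of a type and less RNA per cell cannot be told apart.

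**Figure D1:**
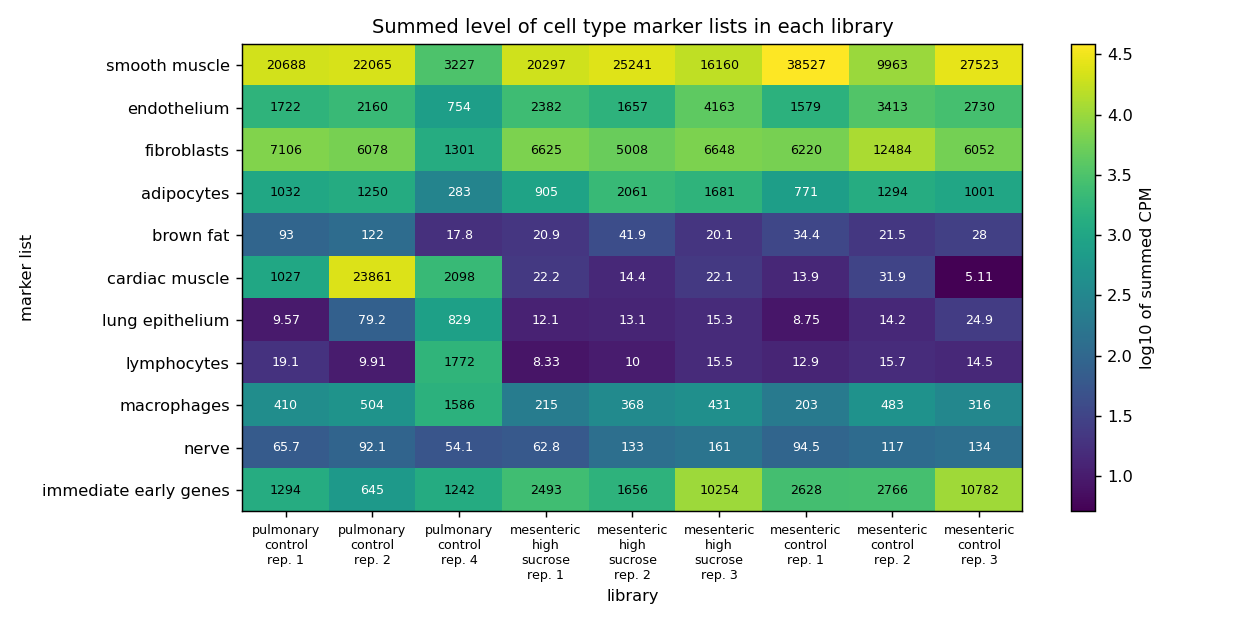
Summed CPM of each marker list (rows) in each library (columns, pulmonary control, mesenteric high sucrose, mesenteric control), with colour on a log10 scale. Cardiac muscle markers sum to 23861 CPM in pulmonary replicate 2, lymphocyte markers to 1772 CPM and lung epithelium markers to 829 CPM in pulmonary replicate 4.

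Among the sensors, Egln3 was the member that differed most between the arteries. It was at 61.4, 87.1 and 11.35 CPM across pulmonary libraries, and at 14.3, 13.8 and 11.33 CPM across control mesenteric libraries. Pulmonary replicates 1 and 2 were thus above all mesenteric libraries, while pulmonary replicate 4 lay within the range of the control mesenteric libraries. The group means were 53.3 ± 38.5 CPM in pulmonary and 13.15 ± 1.599 CPM in control mesenteric artery (SD, n = 3 each). Its log2 fold change was 1.99 ± 0.67 (SE), and it did not pass the edgeR quasi-likelihood test (unadjusted p = 0.0225, Benjamini-Hochberg adjusted p = 0.515 over all genes). Without pulmonary replicate 4 the log2 fold change of Egln3 was 2.48 ± 0.24 and the adjusted p of edgeR was 0.025, a call, in a fit where 0.153% of 14412 genes were called. With any other library left out, with DESeq2, with limma-voom or with the replicate number as a block it was no call, and its adjusted p ran from 0.025 to 0.965 over the alternatives.

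Markers of other cell types also differed among the pulmonary libraries, not all of them in the order of Egln3. The 3 brown fat markers found summed to 93.0, 122 and 17.8 CPM across pulmonary libraries, against 34.4, 21.5 and 28.0 CPM across control mesenteric libraries. Cidea alone, at 80.5, 118 and 17.3 CPM across pulmonary libraries, made up most of this sum, and Ucp1, the defining gene of brown fat, was at 12.5, 4.12 and 0.46 CPM there. Smooth muscle markers were also low in pulmonary replicate 4, as given above, and control mesenteric replicate 2, with a sum of 9963 CPM, had Egln3 at 13.8 CPM. Of the brown fat markers Elovl3 was at 0 counts in all 3 pulmonary libraries, and Ucp1 and Elovl3 were at 0 in control mesenteric replicate 1. Cardiac markers summed to 1027, 23861 and 2098 CPM across pulmonary libraries, against 5.11 to 31.9 CPM in control mesenteric artery. In pulmonary replicate 1 Actc1 alone made up 1018 CPM of this sum, and Myh6 was at 2.64, Tnnt2 at 1.49 and Sln at 0 CPM. Adipocyte (1032, 1250 and 283 CPM), fibroblast (7106, 6078 and 1301 CPM) and endothelial sums (1722, 2160 and 754 CPM) were lowest in pulmonary replicate 4 too. Lymphocyte, lung epithelium and macrophage sums were highest there. Lyz2 made up 1324 CPM of the macrophage sum of 1586 CPM in pulmonary replicate 4. Of the 7 macrophage markers 3 were highest in that library and 2, Mrc1 and Cd163, lowest. The part of any of these cell types in the Egln3 levels was not tested.

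In mesenteric artery Egln3 was at 10.1, 7.17 and 10.2 CPM across high-sucrose libraries, below each of the controls. On the log2 scale the fold change was −0.52 ± 0.24 (SE; edgeR, unadjusted p = 0.0654, adjusted p = 1.00). Egln1, regarded as the main hydroxylase of HIF in normal oxygen, was at 25.3, 56.3 and 32.5 CPM across pulmonary libraries, at 30.7, 30.9 and 27.5 CPM across high-sucrose mesenteric libraries, and at 31.2, 19.0 and 31.8 CPM across control mesenteric libraries. The 3 groups overlapped, with pulmonary replicate 2 the highest and control mesenteric replicate 2 the lowest library. Its log2 fold change was 0.45 ± 0.37 between pulmonary and control mesenteric artery (0.06 without pulmonary replicate 2, −0.13 when replicate 1 alone stood for pulmonary artery) and 0.12 ± 0.23 between high-sucrose and control mesenteric artery (−0.08 without control replicate 2). Neither was a call (edgeR, adjusted p = 0.737 and 1.00).

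**Figure D2:**
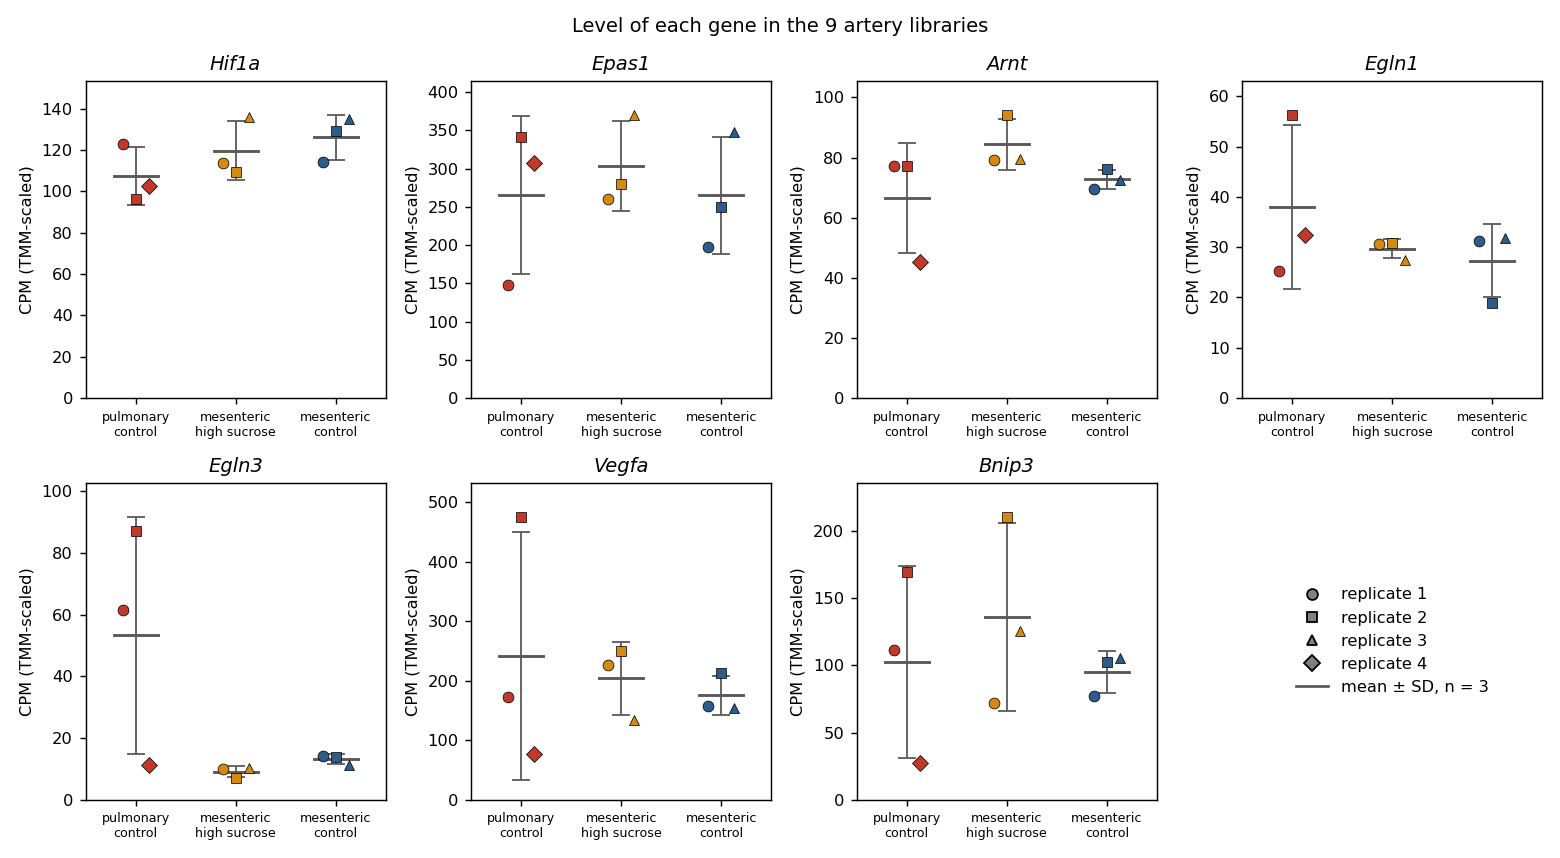
Level in TMM-scaled CPM (linear axis from 0) of the 7 genes in the 9 libraries, by group, with a symbol for each replicate number and the mean ± SD of 3 libraries. For pulmonary artery Egln3 stands at 61.4 (replicate 1), 87.1 (replicate 2) and 11.35 CPM (replicate 4), and over all 9 libraries Hif1a stays between 96.4 and 136.2 CPM.

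Between pulmonary and control mesenteric artery the transcription factor subunits had smaller log2 fold changes than Egln1 and Egln3. Hif1a, the alpha subunit found in most cell types, was at 123.1, 96.4 and 102.5 CPM across pulmonary libraries, at 113.7, 109.6 and 136.2 CPM across high-sucrose mesenteric libraries, and at 114.2, 129.2 and 135.1 CPM across control mesenteric libraries. Its highest library was 1.41 times its lowest, the narrowest range of the 7 genes. The log2 fold change of Hif1a was −0.25 ± 0.23 (SE) in pulmonary against control mesenteric artery and −0.07 ± 0.17 in high-sucrose against control mesenteric artery, and neither passed (edgeR, adjusted p = 0.766 and 1.00).

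Epas1, the alpha subunit known for its expression in endothelium, was at 147.8, 340.7 and 307.6 CPM across pulmonary libraries, at 260.5, 279.3 and 370.1 CPM across high-sucrose mesenteric libraries, and at 197.8, 250.1 and 348.4 CPM across control mesenteric libraries. The 3 groups overlapped, and the lowest library was pulmonary replicate 1. Group means were 265.4 ± 103 CPM in pulmonary and 265.4 ± 76.4 CPM in control mesenteric artery (SD, n = 3 each). The log2 fold change between them was −0.02 ± 0.41 (SE; edgeR, adjusted p = 0.989), and it was 0.26 without pulmonary replicate 1, 0.21 without control mesenteric replicate 3, and −0.86 when replicate 1 alone stood for pulmonary artery. In high-sucrose against control mesenteric artery it was 0.19 ± 0.27 (edgeR, adjusted p = 1.00; 0.02 without high-sucrose replicate 3 or without control replicate 1, 0.44 without control replicate 3).

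Endothelial markers summed to 1722, 2160 and 754 CPM across pulmonary libraries, to 2382, 1657 and 4163 CPM across high-sucrose mesenteric libraries, and to 1579, 3413 and 2730 CPM across control mesenteric libraries. Pulmonary replicate 4, the lowest in this sum, had Epas1 at 307.6 CPM, above 2 of the 3 control mesenteric libraries. In mesenteric artery the highest Epas1 levels were those of replicate 3 in both groups. The same libraries had the highest sums of immediate early genes (10254 CPM in high-sucrose replicate 3 and 10782 CPM in control replicate 3, against 1656 to 2766 CPM in the other 4 mesenteric libraries). Among high-sucrose libraries each of the 9 endothelial markers was highest in replicate 3. Among control libraries Pecam1, Tie1, Tek and Esam were highest in replicate 3. Cdh5, Vwf, Egfl7 and Emcn were highest in control replicate 2, and Erg in control replicate 1. Vwf made up 1434 CPM of the sum of 3413 CPM in control replicate 2. The part of endothelial cells or of the immediate early response in the Epas1 levels was not tested.

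Arnt, the partner of both alpha subunits, was at 77.2, 77.1 and 45.3 CPM across pulmonary libraries, at 79.2, 94.1 and 79.6 CPM across high-sucrose mesenteric libraries, and at 69.7, 76.1 and 72.5 CPM across control mesenteric libraries. All high-sucrose libraries were above all control mesenteric libraries, with means of 84.3 ± 8.50 and 72.8 ± 3.22 CPM (SD, n = 3 each). Arnt had a log2 fold change of 0.21 ± 0.16 (SE) and did not pass (edgeR, unadjusted p = 0.210, adjusted p = 1.00). In pulmonary against control mesenteric artery it was −0.15 ± 0.26 (edgeR, adjusted p = 0.879) and 0.08 without pulmonary replicate 4.

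The balance of the alpha subunits was followed as the ratio of Epas1 to Hif1a counts within a library, which needs no scaling between libraries. The ratio was 1.20, 3.53 and 3.00 across pulmonary libraries, 2.29, 2.55 and 2.72 across high-sucrose mesenteric libraries, and 1.73, 1.94 and 2.58 across control mesenteric libraries. Pulmonary artery held both the lowest and the highest ratio, and the mesenteric groups overlapped. The mean log2 ratio was 1.22 ± 0.84 in pulmonary, 1.33 ± 0.12 in high-sucrose mesenteric and 1.04 ± 0.30 in control mesenteric artery (SD, n = 3 each). The difference from control mesenteric artery was 0.19 for pulmonary artery (exact permutation test, 2-sided p = 0.8) and 0.29 for high-sucrose mesenteric artery (p = 0.3 by the same exact test). With 3 libraries against 3 the smallest p this test allows is 0.1. Without pulmonary replicate 2 the pulmonary difference was −0.11, and without pulmonary replicate 1 it was 0.67. The high-sucrose difference was 0.17 without control replicate 1 and 0.46 without control replicate 3.

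Among the target genes, Vegfa, the main growth signal for blood vessels, was at 172.1, 475.9 and 76.6 CPM across pulmonary libraries, at 227.0, 250.6 and 134.9 CPM across high-sucrose mesenteric libraries, and at 157.7, 213.4 and 154.7 CPM across control mesenteric libraries. Pulmonary artery held both the highest and the lowest of the 9 libraries, a 6.21-fold range. Vegfa had a log2 fold change of 0.43 ± 0.63 (SE) in pulmonary against control mesenteric artery (edgeR, adjusted p = 0.851), which was −0.52 without pulmonary replicate 2 and 0.87 without pulmonary replicate 4. In high-sucrose against control mesenteric artery it was 0.22 ± 0.28 (edgeR, adjusted p = 1.00; 0.06 without high-sucrose replicate 2 and 0.44 without high-sucrose replicate 3). Pulmonary replicate 2 is the library with the cardiac marker sum of 23861 CPM. The part of heart muscle in its Vegfa level was not tested.

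Bnip3 was at 111.7, 169.4 and 27.3 CPM across pulmonary libraries, at 72.1, 210.8 and 125.5 CPM across high-sucrose mesenteric libraries, and at 77.4, 102.5 and 105.8 CPM across control mesenteric libraries. Replicate 2 was the highest library in both the pulmonary and the high-sucrose group, and pulmonary replicate 4 was the lowest of all. Bnip3 had a log2 fold change of 0.08 ± 0.59 (SE) in pulmonary against control mesenteric artery (edgeR, adjusted p = 0.972), which was −0.47 without pulmonary replicate 2 and 0.55 without pulmonary replicate 4. In high-sucrose against control mesenteric artery it was 0.52 ± 0.38 (edgeR, adjusted p = 1.00), 0.06 without high-sucrose replicate 2 and 0.83 without high-sucrose replicate 1. Adipocyte markers summed to 1032, 1250 and 283 CPM across pulmonary libraries. The sums were 905, 2061 and 1681 CPM across high-sucrose libraries and 771, 1294 and 1001 CPM across control mesenteric libraries. The libraries with the highest and the lowest Bnip3 were also those with the highest and the lowest adipocyte sum. Pulmonary replicate 2, next in Bnip3, had a lower adipocyte sum than control mesenteric replicate 2 and high-sucrose replicate 3. It also had the cardiac marker sum of 23861 CPM. Pulmonary replicate 4 was lowest for the smooth muscle, endothelial and fibroblast sums too. In high-sucrose against control mesenteric artery 7 of 8 adipocyte markers had a positive log2 fold change (median 0.68), against 50.3% of all genes. All 7 fibroblast markers had a negative one (median −0.42), 2 of them without overlap of the groups, as for 3.22% of all genes. At an unadjusted edgeR p under 0.05, 2 adipocyte markers were higher (0.865% of all genes) and 2 fibroblast markers lower (1.13%). By adjusted p 0 of either list were called, as were 0 of all 13995 genes. The part of fat cells, fibroblasts, heart muscle or other cells in the Bnip3 levels was not tested.

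**Figure D3:**
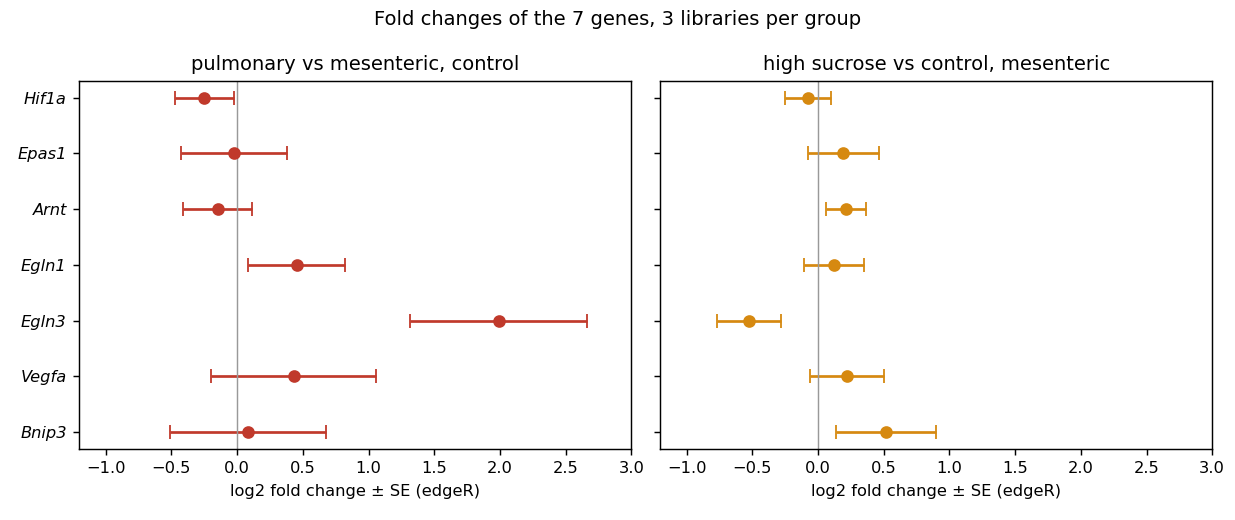
Log2 fold change and its SE (edgeR, 3 libraries per group) of the 7 genes for pulmonary against mesenteric control (left) and for high sucrose against control in mesenteric artery (right). Egln3 has the largest value on the left (1.99), and none of the 14 values passed the test over all genes.

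Of the 7 genes, 0 were called between pulmonary and control mesenteric artery, where edgeR called 0.014% of 14315 genes, and 0 were called between high-sucrose and control mesenteric artery, where it called 0.0% of 13995. At an unadjusted p under 0.05 there was 1 member (Egln3) in the first comparison, against 8.53% of all genes, and 0 members in the second, against 1.99%. DESeq2 called 0 members in both comparisons (2.85% and 0.0214% of all genes), and so did limma-voom (0.231% and 0.0%). The pulmonary and control mesenteric libraries overlapped for each of the 7, while they did not overlap for 14.1% of all genes. High-sucrose and control mesenteric libraries did not overlap for 2 of the 7, Arnt (higher, as for 2.82% of all genes) and Egln3 (lower, as for 3.22%), against 6.05% of all genes in either direction. The median log2 fold change of the 7 was 0.08 in pulmonary against control mesenteric artery (0.06 over all genes) and 0.19 in high-sucrose against control mesenteric artery (0.0024 over all genes).

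How much the members varied within a group differed between the groups. Within pulmonary artery the highest library was 7.67 times the lowest for Egln3, 6.21 times for Vegfa and 6.20 times for Bnip3, where the median gene had a ratio of 2.08, and 91.7%, 88.0% and 88.9% of 14592 genes had a smaller SD of log2 CPM. Hif1a, with a ratio of 1.28, varied more than only 12.1% of genes there. In control mesenteric artery the same 3 targets varied by 1.26, 1.38 and 1.37 times, below the median gene (1.55), while Epas1 (1.76) and Egln1 (1.68) lay above it. Among high-sucrose mesenteric libraries Bnip3 varied most, with a ratio of 2.93, and 90.3% of genes had a smaller SD. Egln1 varied least there (a ratio of 1.124, more than 8.04% of genes). Vegfa (1.86) lay above the median gene of the high-sucrose libraries (1.53), and Egln3 (1.42) below it. The part of cell composition in these ranges was not tested.

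**Figure D4:**
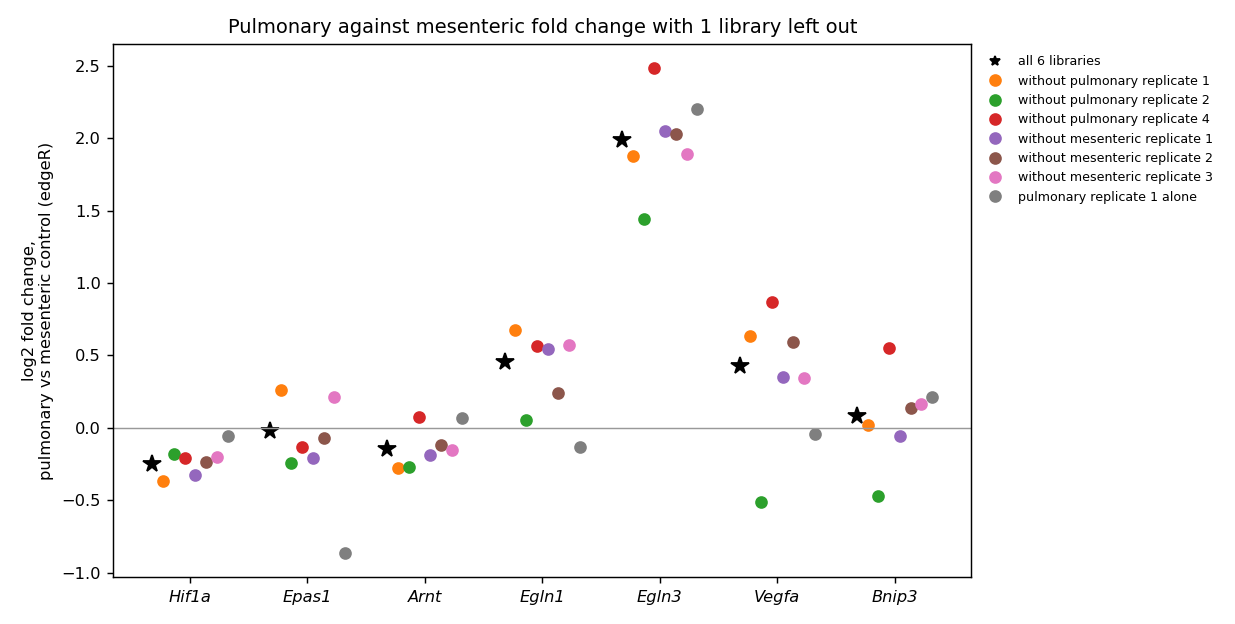
Log2 fold change in pulmonary against mesenteric control (edgeR) for each of the 7 genes with all 6 libraries (star), with 1 library left out (coloured points) and with replicate 1 alone for pulmonary artery (grey). Egln3 stays between 1.45 and 2.48, whereas Vegfa moves between −0.52 and 0.87 and Bnip3 between −0.47 and 0.55.

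The genes most like each member were those with the smallest root mean square difference of centred log2 CPM over the 9 libraries, which carry each library's composition, among 11881 genes. For Hif1a they were Oser1 (0.04) and Yipf5 (0.06), for Epas1 Rapgef1 (0.17) and RGD1309779 (0.19), and for Arnt Lats1, a kinase of the Hippo pathway, and Lactb2 (both 0.09). The median difference over all candidates was 0.46 for Hif1a, 0.58 for Epas1 and 0.50 for Arnt. Egln1 was nearest to R3hdm2 (0.10) and to the glycolytic enzyme Gapdh (0.11), against a median of 0.56. Gapdh was at 550, 1156 and 789 CPM across pulmonary libraries and at 746, 487 and 712 CPM across control mesenteric libraries, so that pulmonary replicate 2 was the highest and control mesenteric replicate 2 the lowest for both genes.

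Egln3 was nearest to Scn2b, a sodium channel subunit (0.39), and to Mdk, the growth factor midkine (0.41), against a median of 1.22. Scn2b was at 45.9, 45.7 and 7.17 CPM across pulmonary libraries and at 14.3, 7.95 and 5.85 CPM across control mesenteric libraries, and thus shared the high replicates 1 and 2. Vegfa was nearest to Dglucy (0.22) and Ppp2r3a (0.24), against a median of 0.78. Bnip3 was nearest to Fzd4, a Wnt receptor of endothelium (0.19), and to AABR07067600.1 (0.23), against a median of 0.88. No member was among the 2 nearest genes of another. The closest members to each other were Hif1a and Arnt, with a difference of 0.27.

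The rest of the pathway was read from 6 lists, of which 94 of 99 genes were found by symbol and 92 were tested between pulmonary and control mesenteric artery. Of these 92, 0 passed edgeR, 6 were higher and 9 lower at an unadjusted p under 0.05 (over all genes 4.23% were higher and 4.3% lower), and 43 had a positive and 49 a negative log2 fold change. Groups did not overlap for 6 higher and 12 lower genes of the lists, against 6.78% and 7.33% of all genes. The median was −0.04, against 0.06 over all genes. With DESeq2 7 of the 92 passed, where 2.85% of all genes did. Only Slc2a3 passed with limma-voom (0.231% of all genes), with the replicate block (0.251% of all genes) and without pulmonary replicate 4 (0.153% of all genes). Beside these lists, 6 of 7 tested immediate early genes and 5 of 9 endothelial markers were lower in all pulmonary than in all control mesenteric libraries, each with 0 called. Their part in the levels of the pathway genes was not tested.

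The glucose transporters of the glycolytic list differed in sign. Slc2a3, the glucose transporter GLUT3, was at 13.2, 16.4 and 32.98 CPM across pulmonary libraries and at 73.3, 101.6 and 94.8 CPM across control mesenteric libraries. Slc2a1, the transporter GLUT1, was at 14.6, 21.1 and 32.5 CPM in the same pulmonary and at 8.95, 7.34 and 11.5 CPM in the same mesenteric libraries. Neither pair of groups overlapped. The log2 fold changes were −2.12 ± 0.40 and 1.28 ± 0.38 (SE; edgeR, adjusted p = 0.238 and 0.464). Slc2a3 passed in DESeq2 (adjusted p = 3.3e-04), in limma-voom (0.0338), with the replicate block (0.0485) and without pulmonary replicate 4 (0.025). Pfkl, the liver form of phosphofructokinase, had a log2 fold change of 0.97 ± 0.37 (edgeR, adjusted p = 0.551). Of the 19 tested glycolytic genes 13 were higher and 6 lower, none of them called, with a median log2 fold change of 0.33, and it was −0.15 when replicate 1 alone stood for pulmonary artery and 0.02 without pulmonary replicate 2.

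In the list of other HIF targets, Stc2, a secreted glycoprotein, was at 3.96, 6.80 and 2.39 CPM across pulmonary libraries and at 35.2, 21.0 and 39.2 CPM across control mesenteric libraries. Higd1a, a small protein of the mitochondrial inner membrane, was at 19.9, 26.4 and 24.2 CPM in the pulmonary and at 75.7, 42.1 and 136.0 CPM in the control mesenteric libraries. All pulmonary libraries were below all control mesenteric ones for both. Their log2 fold changes were −2.88 ± 0.47 and −1.87 ± 0.44 (SE; edgeR, adjusted p = 0.159 and 0.365), and both passed in DESeq2 (adjusted p = 4.8e-06 and 0.0101). Ca12, a carbonic anhydrase of the cell surface, had 9, 15 and 60 counts across pulmonary libraries and 0, 2 and 0 counts across control mesenteric libraries, which is 38.2 times as many (95% interval from counting error alone, 10.3 to 321; edgeR, adjusted p = 0.409; DESeq2, adjusted p = 0.0291), and was highest in the pulmonary library with the lung epithelium sum of 829 CPM. The part of lung epithelium in Ca12 was not tested. Hilpda, a lipid droplet protein named here because it passed in DESeq2 (adjusted p = 0.0337), was at 6.52, 5.36 and 7.10 CPM across pulmonary libraries and at 11.1, 14.5 and 12.5 CPM across control mesenteric libraries (log2 fold change −1.02 ± 0.32, SE; edgeR, adjusted p = 0.483). Over the list, 12 of 32 tested genes were higher and 20 lower, 0 were called, and the median was −0.20.

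Among VEGF relatives and vascular targets, Edn1, the precursor of the constrictor endothelin-1, was at 18.2, 18.5 and 9.09 CPM across pulmonary libraries and at 23.9, 221.4 and 100.8 CPM across control mesenteric libraries. The groups did not overlap, and control replicate 1, at 23.9 CPM, was the lowest control, as it was for the endothelial sum (1579 CPM). The highest control of both was control replicate 2. Pulmonary replicates 1 and 2 had larger endothelial sums (1722 and 2160 CPM) than control replicate 1 but lower Edn1. The part of endothelial cells in the Edn1 levels was not tested. The log2 fold change of Edn1 was −2.95 ± 0.79 (SE; edgeR, adjusted p = 0.420), and it passed in DESeq2 (adjusted p = 0.0081). Pgf, placental growth factor, had a log2 fold change of 1.25 ± 0.49 and Vegfc, the lymphatic growth factor, of −1.10 ± 0.47 (edgeR, adjusted p = 0.563 and 0.593). Of the 10 tested genes of this list 4 were higher and 6 lower, 0 were called, and the median was −0.07.

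Arnt2, the relative of Arnt known from neurons, was at 7.18, 7.17 and 2.52 CPM across pulmonary libraries and at 0.66, 1.66 and 1.77 CPM across control mesenteric libraries. Its log2 fold change was 2.02 ± 0.63 (SE; edgeR, adjusted p = 0.482), and as with Egln3 pulmonary replicates 1 and 2 were the high ones. Cited2, which competes with HIF for its coactivators, and the coactivator Crebbp had log2 fold changes of 0.44 ± 0.32 and −0.18 ± 0.22 (edgeR, adjusted p = 0.712 and 0.827). Of the 5 tested partners 3 were higher and 2 lower, 0 were called, and the median was 0.03.

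Parts of the machinery that removes HIF were lower in all pulmonary than in all control mesenteric libraries for Eloc and Elob, the elongins of the ubiquitin ligase built on Vhl. Eloc had a log2 fold change of −0.47 ± 0.23 and Elob of −0.46 ± 0.24 (SE; edgeR, adjusted p = 0.610 and 0.623), and P4htm, a transmembrane prolyl hydroxylase, of −0.80 ± 0.45 (edgeR, adjusted p = 0.644). Over this list 3 of 9 tested genes were higher and 6 lower, 0 were called, and the median was −0.20. Bnip3l, the close relative of Bnip3 known from the clearing of mitochondria in red cell precursors, was at 124.4, 84.9 and 80.6 CPM across pulmonary libraries and at 165.3, 193.6 and 213.2 CPM across control mesenteric libraries, with no overlap. Its log2 fold change was −0.996 ± 0.28 (SE; edgeR, adjusted p = 0.437; DESeq2, adjusted p = 0.0386), beside 0.08 ± 0.59 for Bnip3. Phb2, a mitochondrial prohibitin, had 0.67 ± 0.33 and Gabarapl1, an autophagosome protein, −0.87 ± 0.50 (edgeR, adjusted p = 0.609 and 0.649). In all, 8 of 17 tested mitophagy genes were higher and 9 lower, 0 were called, and the median was −0.10.

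**Figure D5:**
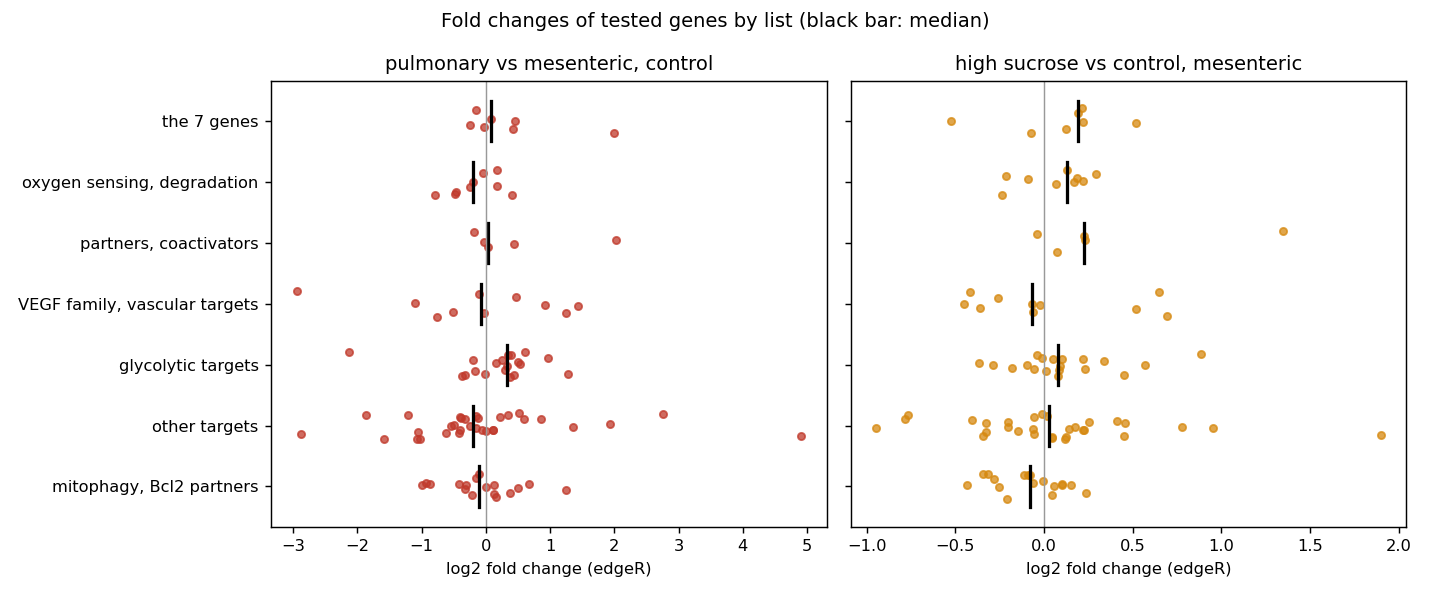
Log2 fold change (edgeR) of each tested gene of the 7 genes and the 6 pathway lists, for pulmonary against mesenteric control (left) and high sucrose against control in mesenteric artery (right, on its own scale), with the median as a black bar. The medians of the 6 lists lie between −0.20 and 0.33 on the left and between −0.08 and 0.23 on the right.

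Between high-sucrose and control mesenteric artery 0 of 90 tested pathway genes passed edgeR, 0 had an unadjusted p under 0.05 (over all genes 0.865% were higher and 1.13% lower), and DESeq2 and limma-voom called 0. Of these, 47 were higher and 43 lower, with a median log2 fold change of 0.03 (0.0024 over all genes). The groups did not overlap for 1 of the 90, Gbe1 (lower), named after its values were seen, against 6.05% of all genes (3.22% lower). Among other HIF targets (16 of 30 higher, median 0.03), the smallest p-values were those of Stc2 (−0.95 ± 0.42), the collagen lysyl hydroxylase Plod1 (0.41 ± 0.20) and the heme oxygenase Hmox1 (1.90 ± 0.99, SE). Hmox1 was at 130.1, 15.9 and 21.4 CPM across high-sucrose libraries and at 6.43, 32.2 and 6.41 CPM across control libraries, and its log2 fold change had a lowest value of 0.32 over the alternatives.

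The partners had a median of 0.23, with 4 of 5 higher. Hif3a, an alpha subunit that can oppose HIF, was at 5.20, 54.3 and 14.4 CPM across high-sucrose libraries and at 11.3, 6.90 and 10.9 CPM across control libraries, so that its log2 fold change of 1.35 ± 0.77 (SE) was 0.02 at its lowest over the alternatives. High-sucrose replicate 2 was also the highest library for Bnip3 and for the adipocyte sum. Ep300, a coactivator listed on 2 lines of which 1 was tested, had 0.23 ± 0.18 and Arnt2 had 0.23 ± 0.55. Of the 9 tested genes of oxygen sensing 6 were higher (median 0.13), with Elob at −0.23 ± 0.18, Vhl, the recognition subunit of the HIF ligase, at 0.22 ± 0.20 and the hydroxylase Egln2 at 0.17 ± 0.16.

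The glycolytic list had 12 of 19 genes higher (median 0.08), with hexokinase 2 (Hk2) at 0.88 ± 0.47, Gpi at −0.29 ± 0.24 and Slc2a1 at 0.34 ± 0.29. Hk2 was at 34.3, 27.8 and 9.29 CPM across high-sucrose libraries and at 9.55, 13.2 and 16.1 CPM across control libraries, so that replicate 3 of the high-sucrose group lay below all controls. Of the VEGF and vascular list 3 of 10 were higher (median −0.07), with the VEGF receptors Nrp2 at 0.69 ± 0.45 and Kdr at 0.65 ± 0.50. Mitophagy genes had 6 of 17 higher (median −0.08), with Fundc1, a mitophagy receptor, at −0.28 ± 0.18, Fkbp8 at −0.31 ± 0.22 and the kinase Pink1 at −0.35 ± 0.31 (SE throughout). Each of these named genes had an adjusted p of 1.00 by edgeR.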

How the data were processed

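The authors deposited 1 file of raw gene counts (whole numbers) from each library, and the submitters' processing notes name the build rn7. How reads were aligned and counted, and on which annotation or strand, is not given in the sources used, so reads shared with gene copies, pseudogenes or antisense transcripts are not separable. Per the labels' protocols, poly(A) RNA was enriched and copied with random primers. Each line of the files was analysed as its own feature.

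Each comparison used edgeR 4.0.16 under R 4.3.3, with its quasi-likelihood F test (TMM, filterByExpr, robust prior) on the 6 libraries of a comparison, with Benjamini-Hochberg adjustment over all genes tested and a threshold of 0.05. SE was derived from the log2 fold change and F. DESeq2 1.42.0 and limma 3.58.1 were alternatives. Levels are CPM on totals scaled by TMM over 9 libraries. For centred profiles 0.5 was added to CPM, and candidates needed a symbol and a mean log2 CPM of at least 1. The pathway genes named are the 3 with the smallest p of each list in each comparison, except 1 that is not reported here. The test was tried on simulated data. Promoter sequences are from RefSeq (GRCr8), a build other than that of the counts. The members, lists and alternatives were chosen with earlier results of these data known. Counting intervals cover counting error only.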

Additional observations from a re-analysis of the deposited data

How the results depend on the processing

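In high-sucrose against control mesenteric artery edgeR called 0 genes, 0 members and 0 pathway genes under each of its settings, and DESeq2 called 3 genes, none of them a member or a pathway gene. In pulmonary against control mesenteric artery edgeR called 2 genes. The count was 408 with DESeq2, 33 with limma-voom and quality weights, 9 with the newer quasi-likelihood method of edgeR, 38 with all 9 libraries in 1 fit and 0 with pulmonary replicate 1 alone, and it ran from 0 to 22 with 1 library left out. Members called ran from 0 to 1 and pathway genes called from 0 to 1 with 1 library left out (both 1 without pulmonary replicate 4). Pathway genes called were 7 with DESeq2 and 1 with limma-voom. The cause of these differences was not tested.

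Whether libraries of the same replicate number are paired is not given, and the correlations below, which also carry cell composition, cannot decide it. Deviations of same-numbered libraries from their group means correlated over genes at 0.196, −0.295 and 0.117 for numbers 1, 2 and 3 of the mesenteric groups and at 0.179 and −0.171 for numbers 1 and 2 of pulmonary and control mesenteric artery. With the replicate block, in which pulmonary replicate 4 and control mesenteric replicate 3 have no partner, 36 genes, 0 members and 1 pathway gene were called between pulmonary and control mesenteric artery, and 0 genes between the mesenteric groups.

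Of 217 log2 fold changes of members under the alternatives, 204 kept direction and side of the threshold, 12 reversed and 1, Egln3 without pulmonary replicate 4 (2.48), became a call. In pulmonary against control mesenteric artery Arnt was at 0.020 with limma-voom, 0.061 with the replicate block and 0.065 with pulmonary replicate 1 alone, and ran from −0.28 to 0.075 with 1 library left out. With pulmonary replicate 1 alone Egln1 was at −0.13 and Vegfa at −0.044. With 1 library left out Epas1 ran from −0.24 to 0.26, Vegfa from −0.52 to 0.87, Bnip3 from −0.47 to 0.55 and the log2 ratio of Epas1 to Hif1a from −0.11 to 0.67, and Egln1 in the mesenteric comparison from −0.085 to 0.24. Library totals without TMM, chosen after the data were seen, reversed no member.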
